A study of Mus musculus with 28 samples.

Results

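The genes described here encode receptor chains for interleukins that signal through the common gamma chain, together with 1 of those interleukins. They are Il2ra, Il2rb, Il2rg, Il15, Il15ra, Il7r, Il4ra and Il21r, 8 genes, of which 7 are among the 18194 that the array's single-gene probe sets name. The members were chosen from measured values of these same arrays: Il2ra was picked for a difference between genotypes, and the others because they belong to the same receptor family. For 7 of the 8, at least 1 probe set names that gene alone (13 probe sets in all), and each gene is represented by the probe set with its highest mean over all arrays. Il2rg, the common gamma chain itself, has no such probe set in the annotation used here and is not analysed further. All 7 measured members passed the filter on low values in both experiments.

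Spleen RNA was hybridised to 28 1-colour arrays. The diet was a control diet or one supplemented with the plant hormone abscisic acid (ABA). Mice received lipopolysaccharide (LPS), the bacterial cell wall component that activates Toll-like receptor signalling, or did not. All mice carried floxed Pparg alleles (PPAR g flfl). Those called wild-type lacked the Cre transgene (MMTV-Cre-) and those called null carried it (MMTV-Cre+), with Cre driven by the mouse mammary tumour virus promoter. The labels describe the deletion in one place as spleen-specific and in another as specific to epithelial and immune cells. The single-genotype experiment held wild-type mice only, and each diet had 4 arrays with LPS and 2 without, 12 in all. The other, called the both-genotype experiment here, had 2 arrays for each combination of genotype, diet and LPS, 16 in all. The dose and time of LPS, and the age of the mice, are not given in the sources used here, and nothing in the labels ties each replicate to its own animal. The p-values therefore cover only the variation among these samples, which may be technical.

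IL-2, IL-4, IL-7, IL-9, IL-15 and IL-21 share the common gamma chain, which pairs with JAK3 inside the cell and, with a partner chain bound to JAK1, activates STAT transcription factors. IL-2 and IL-15 both signal through the beta chain (Il2rb) with the common gamma chain. Each has an alpha chain of its own: Il2ra (CD25) raises the affinity for IL-2 on regulatory and activated T cells, while Il15ra holds IL-15 at the surface of the producing cell and presents it to natural killer (NK) and memory T cells. Il7r binds IL-7, the survival factor of naive T cells. Il4ra carries the IL-4 signal to STAT6, and Il21r carries that of IL-21, a T cell product that acts on B cells.

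Several members are neighbours in the genome. In the mouse build GRCm38.p6, Il2ra spans positions 11642792 to 11693194 of chromosome 2 and Il15ra spans 11705172 to 11733985, so the genes of these alpha chains lie 12.0 kb apart. Il4ra (125552271 to 125579474) and Il21r (125603252 to 125634397) lie 23.8 kb apart on chromosome 7. Il7r and Il2rb are both on chromosome 15 but far apart, Il15 is on chromosome 8 and Il2rg is on the X chromosome. The promoters of the adjacent alpha chain genes are shown because both genes were among those that rose with LPS in wild-type spleen. Each runs from 250 bases before to 50 bases after a RefSeq start site, on the plus strand: chr2:11642542-11642841 for Il2ra, and chr2:11705043-11705342 and chr2:11705462-11705761 for 2 start sites of Il15ra. Capitals mark matches to the interferon regulatory factor motif GAAANNGAA or the NF-kB motif GGGANNTTC, searched on both strands.
Il2ra: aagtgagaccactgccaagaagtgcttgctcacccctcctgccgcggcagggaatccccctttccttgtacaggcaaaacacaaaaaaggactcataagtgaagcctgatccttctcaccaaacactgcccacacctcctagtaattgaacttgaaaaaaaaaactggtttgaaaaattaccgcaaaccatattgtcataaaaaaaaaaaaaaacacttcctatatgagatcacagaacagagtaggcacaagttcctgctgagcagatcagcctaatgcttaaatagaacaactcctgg
Il15ra, first start site: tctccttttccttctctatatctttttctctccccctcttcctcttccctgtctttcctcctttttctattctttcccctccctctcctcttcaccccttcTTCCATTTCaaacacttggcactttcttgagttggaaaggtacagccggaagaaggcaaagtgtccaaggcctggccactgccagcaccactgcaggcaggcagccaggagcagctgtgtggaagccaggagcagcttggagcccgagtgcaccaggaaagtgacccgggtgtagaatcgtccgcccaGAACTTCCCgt
Il15ra, second start site: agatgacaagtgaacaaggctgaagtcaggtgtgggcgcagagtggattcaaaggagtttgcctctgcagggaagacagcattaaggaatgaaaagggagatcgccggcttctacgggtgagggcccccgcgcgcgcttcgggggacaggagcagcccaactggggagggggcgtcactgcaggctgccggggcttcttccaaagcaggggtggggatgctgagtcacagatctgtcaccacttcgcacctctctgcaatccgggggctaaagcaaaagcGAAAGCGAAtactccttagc
The first Il15ra window held an interferon regulatory factor match on the minus strand that begins at position -149 from the start site, and an NF-kB match on the minus strand at position 40. The second held an interferon regulatory factor match on the plus strand at position 31. The Il2ra window held no match to either of these exact patterns, nor to the STAT motif TTCNNNGAA. Other forms of these motifs were not searched, so a site of another form may be present. Among 32851 promoter windows of this length, 8.56% held the interferon regulatory factor motif, 3.94% the NF-kB motif and 8.3% the STAT motif. The windows of Il4ra, Il21r and Il2rg held none of these motifs, and that of Il7r held the STAT motif at position -142. These matches describe letters only. The windows of Il2rb and Il15 were not used here.

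Values are log2 expression, and the lowest value of an experiment (2.29 in the single-genotype and 2.24 in the both-genotype experiment) was taken by 35.9% to 41.9% of the probe sets of an array. This value differs between the experiments, which were therefore treated as normalised separately, and levels are compared only within an experiment. Pparg, the targeted gene, read 2.29 to 3.70 over all 28 arrays. It read 2.31 to 3.56 in wild-type and 2.45 to 3.31 in null mice of the both-genotype experiment, which gives no check on the labelled genotypes. Xist, the RNA of the inactive X chromosome, was high on all 12 arrays of the single-genotype experiment but on only some arrays of the other, and the pancreatic enzyme Cpa1 was above 4.5 on 4 arrays. Some values of both are given beside the results they bear on.

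Il2ra rose with LPS in wild-type spleen, by the probe set used for it. Among the single-genotype arrays without LPS, its values were 4.67 and 4.52 for the control diet, and 4.67 and 4.55 for the ABA diet. With LPS it read 6.83, 7.60, 8.15 and 9.15 on the control diet, compared with 7.25, 8.74, 7.72 and 7.03 on the ABA diet. Every array with LPS lay above every array without it, and the diets overlapped. The change, averaged over diets, was 3.21 ± 0.45 log2 units (SE, 8 against 4 arrays), a 9.23-fold rise (limma, adjusted p = 0.000969 over 12059 genes). T cells carry much of the Il2ra in a resting spleen, and in whole tissue more cells of a type and more RNA per cell cannot be told apart.

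In the both-genotype experiment Il2ra left the lowest values on few arrays. Wild-type mice on the control diet with LPS read 4.69 and 4.28. Wild-type mice on the ABA diet with LPS read 2.51 and 2.37, within 0.5 log2 units of the lowest value. The other 12 arrays, which include all 8 from null mice, read 2.25 to 2.34. The group of wild-type mice on the control diet with LPS was thus the highest by this probe set, and the other 7 groups, all near the lowest value, were not ordered. The null mice with LPS averaged 2.19 log2 units below wild-type on the control diet (2.30 ± 0.06 against 4.49 ± 0.29; SD, n = 2 each) and 0.18 below on the ABA diet (2.26 ± 0.00 against 2.44 ± 0.10; SD, n = 2 each). Without LPS the difference was -0.02 on the control diet, against 0.00 on the ABA diet. The genotype difference chose this gene, so these values are a description and no test is given for Il2ra in this experiment.

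**Figure D1:**
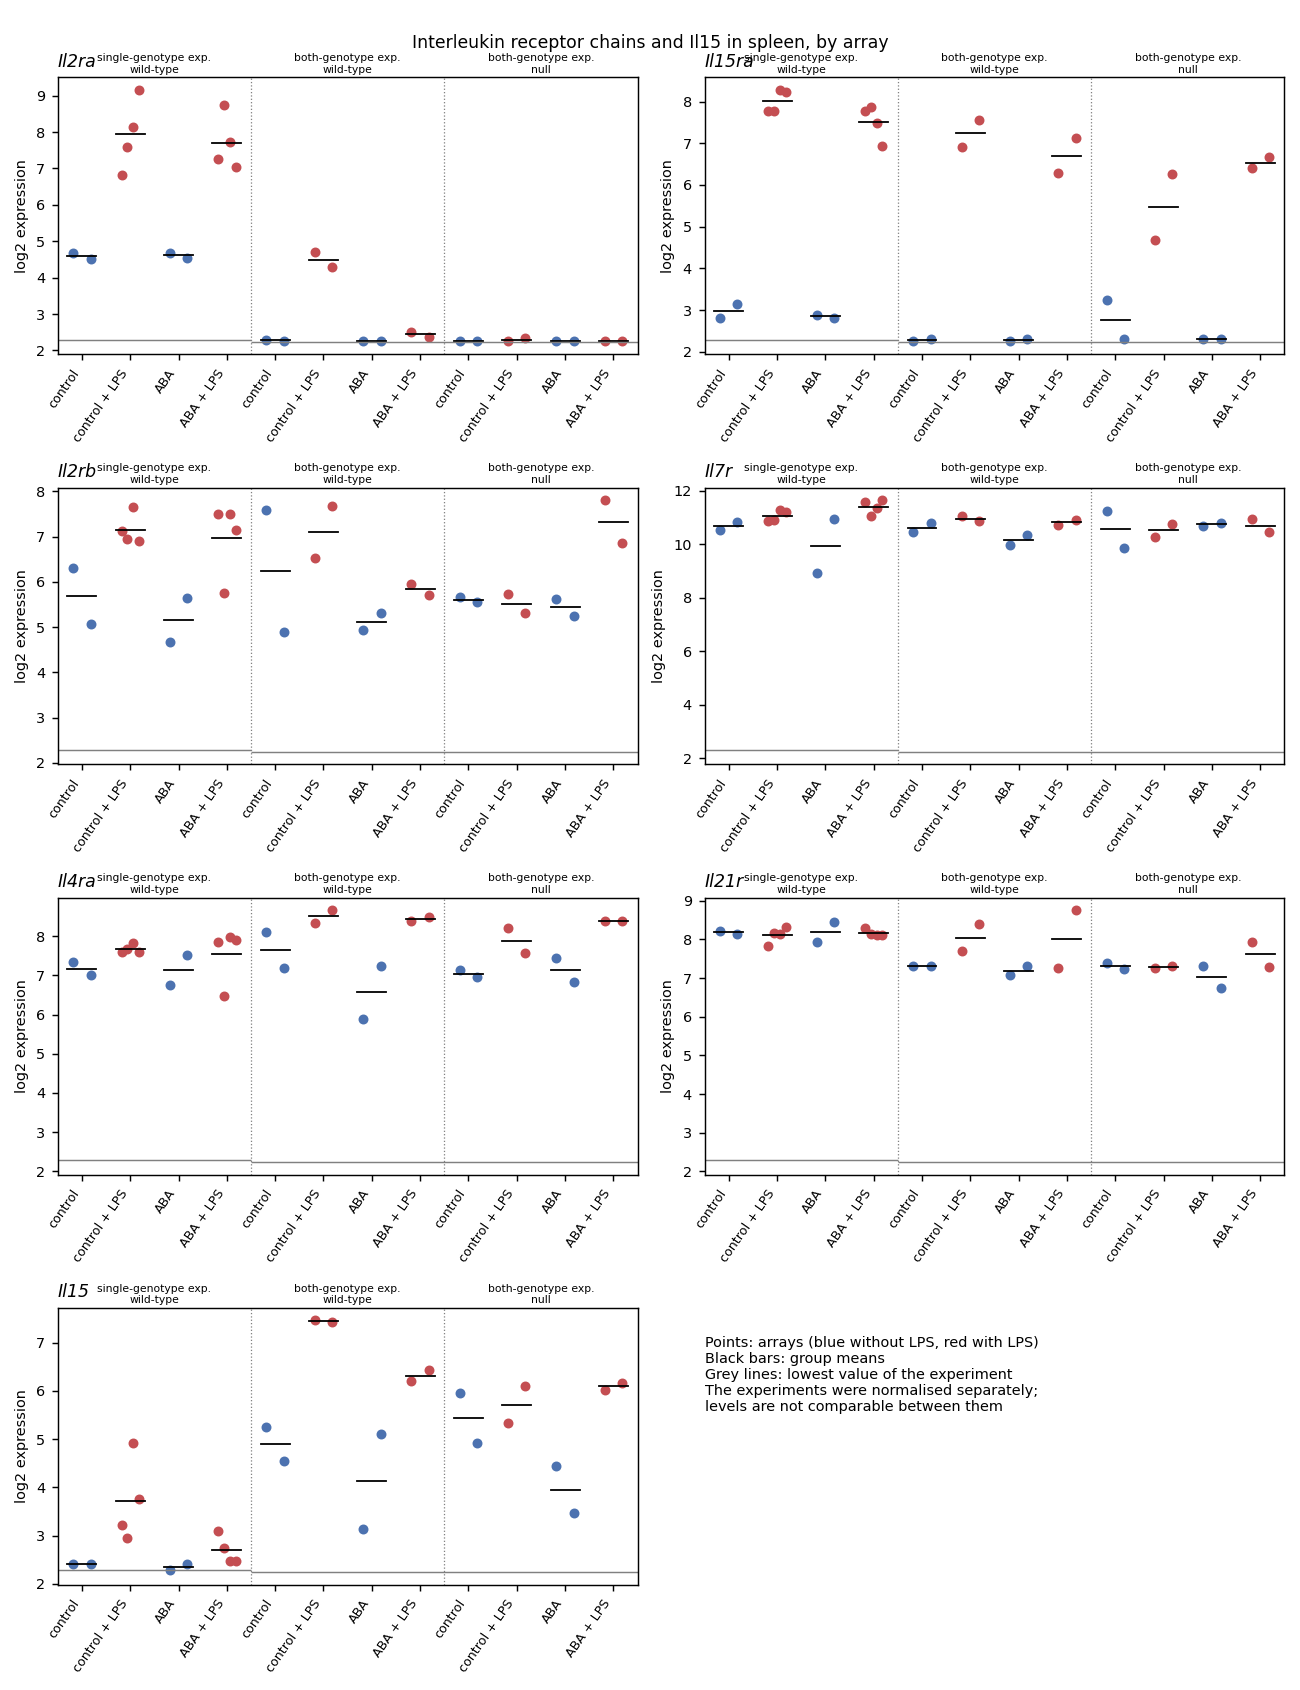
Log2 expression of the 7 measured members on each array, by group (x axis: diet and LPS within experiment and genotype; points are arrays, black bars group means, grey lines the lowest value of the experiment). Il15ra is high on every array with LPS, while Il2ra in the both-genotype experiment is above 2.34 only in wild-type mice with LPS.

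Xist and the choice of probe set bear on the genotype values of Il2ra. On the control diet with LPS, Xist was high on both wild-type arrays (12.46 and 12.17), whereas the null arrays read 2.25 and 12.28. The Xist-high null array had an Il2ra value of 2.34, and the Xist-high null array on the ABA diet with LPS (Xist 13.48) had 2.26. Both wild-type arrays on the ABA diet with LPS were Xist-low (2.25 and 2.25). A second Il2ra probe set, 1420692_at, gave another picture from the one used above, 1420691_at. It read 4.67 and 5.82 in wild-type mice on the control diet with LPS, and 2.39 and 3.42 in wild-type mice on the ABA diet with LPS. In null mice with LPS it read 2.77 and 3.05 on the control diet, compared with 3.92 and 2.29 on the ABA diet, so 3 of these 4 null arrays lay above all 8 arrays without LPS, which read 2.26 to 2.29. The null arrays on the control diet still lay below the wild-type arrays, but on the ABA diet the genotypes overlapped. Over the single-genotype arrays the second probe set stayed at 2.29 to 2.64 (12 arrays), where the first rose 9.23-fold. The probe sets thus disagree on whether Il2ra RNA was raised in null mice with LPS, and the part of Xist and of the probe set in the result was not tested.

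**Figure D2:**
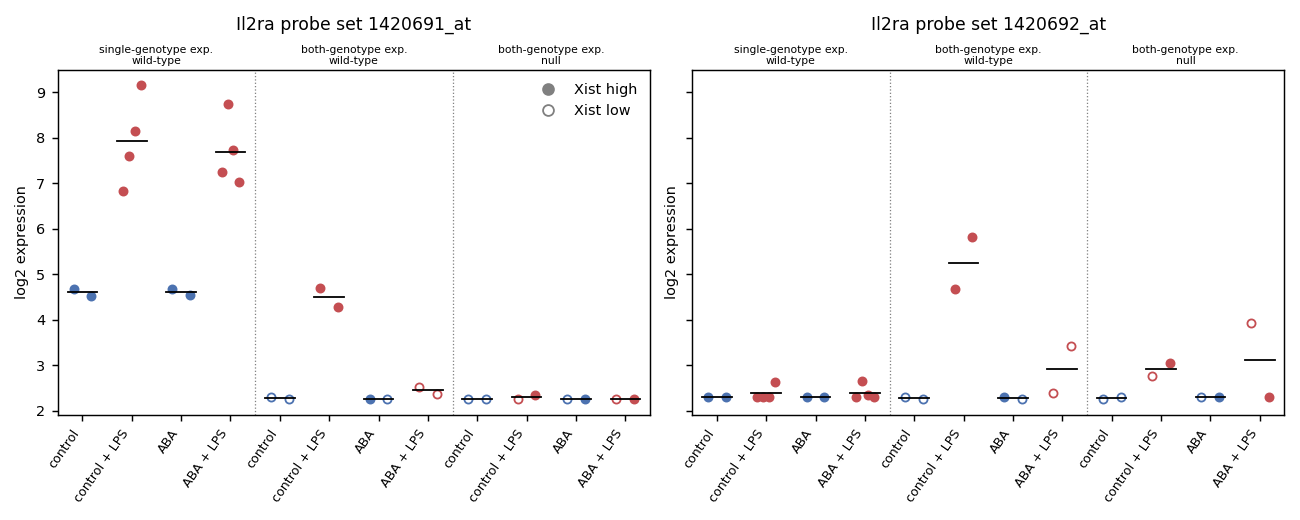
Log2 expression of both Il2ra probe sets on each array (left 1420691_at, used for the gene; right 1420692_at; filled points are arrays with Xist above 6 and open points arrays with low Xist; red with LPS, blue without; black bars group means). The left probe set rises with LPS in the single-genotype experiment and the right one does not, while in null mice with LPS only the right one leaves the lowest values.

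Il15ra had the largest LPS change of the members tested in all 3 LPS comparisons. In the single-genotype experiment its values were 2.81 to 3.15 on the 4 arrays without LPS. With LPS it read 7.76, 7.77, 8.28 and 8.23 on the control diet, against 7.77, 7.87, 7.49 and 6.93 on the ABA diet. The groups were far apart, and the rise was 4.85 ± 0.19 log2 units (SE, 8 against 4 arrays), or 28.8-fold (limma, adjusted p = 6.71e-07). In wild-type mice of the both-genotype experiment it read 2.25 and 2.30 without LPS on each diet. LPS-treated mice read 6.92 and 7.55 on the control diet, compared with 6.29 and 7.12 on the ABA diet. The fitted rise was 4.69 ± 0.36 log2 units, or 25.8-fold (SE, 4 against 4 arrays; limma, adjusted p = 9.28e-05). All 4 untreated arrays were near the lowest value, where a level is only an upper bound, so this fold may understate the rise.

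Null mice also raised Il15ra with LPS. Without LPS it read 3.24 and 2.30 on the control diet, against 2.30 and 2.30 on the ABA diet. After LPS the values were 4.69 and 6.25 on the control diet, compared with 6.40 and 6.66 on the ABA diet. All 4 arrays with LPS lay above all 4 without, and the rise was 3.47 ± 0.36 log2 units, or 11.0-fold (SE, 4 against 4 arrays; limma, adjusted p = 0.000691), with 3 of the 4 untreated arrays near the lowest value. No test of the difference between the genotypes is given, since genotype was used in choosing the genes. The other Il15ra probe set moved the same way, by 2.97 log2 units in the single-genotype experiment, 2.07 in wild-type mice of the both-genotype experiment and 1.12 in null mice.

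Il15, the interleukin that Il15ra presents, rose with LPS in wild-type mice of the both-genotype experiment. There it read 5.26 and 4.55 without LPS on the control diet, against 3.14 and 5.11 on the ABA diet. The arrays with LPS read 7.46 and 7.42 on the control diet, compared with 6.20 and 6.42 on the ABA diet. The arrays with and without LPS did not overlap, and the change was 2.36 ± 0.44 log2 units, or 5.13-fold (SE, 4 against 4 arrays; limma, adjusted p = 0.0101). In null mice on the control diet, Il15 was 5.96 and 4.92 in untreated and 5.34 and 6.09 in LPS-treated animals, values that overlapped. On the ABA diet the null mice read 4.44 and 3.47 in the absence of LPS, and 6.01 and 6.17 in its presence. Averaged over diets the null change was 1.21 ± 0.44 log2 units and did not pass (limma, adjusted p = 0.145).

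Il15 in the single-genotype experiment lay near the lowest value without LPS, at 2.29 to 2.41. LPS-treated mice read 3.22, 2.95, 4.92 and 3.76 on the control diet, against 3.09, 2.75, 2.48 and 2.48 on the ABA diet. All arrays with LPS were higher than all arrays without, but the change of 0.83 ± 0.33 log2 units did not pass (SE, 8 against 4 arrays; limma, adjusted p = 0.1). Without control-diet replicate 3 with LPS it was 0.62 and passed (limma, adjusted p = 0.0377). The control and ABA arrays with LPS overlapped between 2.95 and 3.09, and their means differed by -1.01 ± 0.38 log2 units, which did not pass (SE, 4 against 4 arrays; limma, adjusted p = 0.462).

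Il2rb, the signalling chain shared by the IL-2 and IL-15 receptors, rose in the single-genotype experiment. In the absence of LPS it read 6.31 and 5.07 on the control diet, compared with 4.67 and 5.64 on the ABA diet. The LPS arrays read 7.13, 6.94, 7.65 and 6.91 on the control diet, against 7.51, 5.75, 7.50 and 7.14 on the ABA diet. All but 1 array with LPS lay above every array without it, the exception being ABA replicate 2. The change was 1.64 ± 0.40 log2 units, or 3.13-fold (SE, 8 against 4 arrays; limma, adjusted p = 0.0156). It did not pass without control-diet replicate 2 lacking LPS (1.33, limma, adjusted p = 0.0684), without ABA replicate 1 lacking LPS (1.40, limma, adjusted p = 0.0593), or with the replicate block (1.41, limma, adjusted p = 0.0991).

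In the both-genotype experiment Il2rb varied widely between replicates. Wild-type mice on the control diet read 7.59 and 4.90 without LPS and 6.53 and 7.68 with it, and on the ABA diet 4.94 and 5.31 without and 5.96 and 5.71 with it. Null mice read 5.25 to 5.67 on the 4 arrays without LPS, 5.73 and 5.32 on the control diet with LPS, and 7.81 and 6.86 on the ABA diet with LPS. The 2 highest null arrays were thus those on the ABA diet with LPS. The LPS change did not pass in wild-type mice (0.79 ± 0.53, limma, adjusted p = 0.394) or in null mice (0.90 ± 0.53, limma, adjusted p = 0.363). Without control-diet replicate 1 lacking LPS, the wild-type change was 1.46 and passed (limma, adjusted p = 0.0338). The other Il2rb probe set changed by 0.99 log2 units in the single-genotype experiment, by 0.07 in wild-type and by 0.01 in null mice of the both-genotype experiment.

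Il4ra, the chain shared by the IL-4 and IL-13 receptors, rose in wild-type mice of the both-genotype experiment. Untreated mice read 8.09 and 7.18 on the control diet, and 5.89 and 7.24 for the ABA diet. With LPS it read 8.34 and 8.65 on the control diet, compared with 8.37 and 8.49 on the ABA diet. Each array with LPS was above each array without, and the change was 1.37 ± 0.32 log2 units, or 2.58-fold (SE, 4 against 4 arrays; limma, adjusted p = 0.023). Leaving out any 1 of 3 wild-type arrays lost the call: ABA with LPS replicate 2 (1.34, limma, adjusted p = 0.0756), control diet without LPS replicate 2 (1.14, limma, adjusted p = 0.0587) or control diet with LPS replicate 2 (1.29, limma, adjusted p = 0.0874). Null mice read 7.13, 6.96, 7.45 and 6.83 without LPS and 8.20, 7.57, 8.37 and 8.39 with it. Those groups did not overlap either, with a change of 1.04 ± 0.32 that did not pass (limma, adjusted p = 0.0854). Il4ra in the single-genotype experiment read 6.75 to 7.52 without LPS. With LPS it read 7.58 to 7.81 on the control diet, while on the ABA diet 3 arrays read 7.85 to 7.97 and replicate 2 read 6.48. The change of 0.45 ± 0.29 did not pass (limma, adjusted p = 0.276), and without that replicate it was 0.63 and passed (limma, adjusted p = 0.0132). Of the other Il4ra probe sets, 1 changed by 0.01 and 1 by 0.33 log2 units in the single-genotype experiment, and by 0.57 and 0.00 in wild-type mice of the other.

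Il7r was far above the lowest value on all 28 arrays and no LPS comparison called it. Among single-genotype arrays lacking LPS it read 10.52 and 10.83 on the control diet, against 8.90 and 10.95 on the ABA diet. The LPS values were 10.85 to 11.26 on the control diet, compared with 11.06 to 11.64 on the ABA diet. The values overlapped, and the change of 0.93 ± 0.33 log2 units did not pass (SE, 8 against 4 arrays; limma, adjusted p = 0.0667). ABA replicate 1 without LPS stood apart at 8.90. With replicate 2 of that group left out, so that this array stood for the group and was assumed to vary like the others, the LPS change was 1.44 (limma, adjusted p = 0.00033), the ABA change without LPS -1.77 (limma, adjusted p = 0.00558) and the diet by LPS interaction 2.13 (limma, adjusted p = 0.0058). In the both-genotype experiment Il7r read 9.86 to 11.24 over all 16 arrays, with LPS changes of 0.50 ± 0.27 in wild-type (limma, adjusted p = 0.293) and -0.04 ± 0.27 in null mice (limma, adjusted p = 0.984). The other Il7r probe set changed by 1.18 log2 units in the single-genotype experiment, by 0.84 in wild-type and by 0.45 in null mice.

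Il21r values overlapped in the single-genotype experiment, at 7.94 to 8.46 without LPS and 7.83 to 8.33 with it. The change was -0.05 ± 0.11 log2 units (SE, 8 against 4 arrays; limma, adjusted p = 0.805). In wild-type mice of the both-genotype experiment it read 7.08 to 7.31 without LPS. LPS-treated mice read 7.70 and 8.39 on the control diet, against 7.26 and 8.75 on the ABA diet. The change of 0.77 ± 0.31 did not pass (limma, adjusted p = 0.146), and without ABA replicate 1 with LPS it was 1.15 and passed (limma, adjusted p = 0.0159). Null mice read 6.74 to 7.39 without LPS and 7.27 to 7.93 with it, a change of 0.28 ± 0.31 (limma, adjusted p = 0.654).

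Counted over the members, 3 of 7 rose with LPS in the single-genotype experiment (Il2ra, Il2rb and Il15ra) and 0 fell. Over all genes tested 27.1% changed, 15.1% upward and 12% downward. The median change was 0.93 log2 units for the members and -1e-04 for all genes. Among wild-type mice of the both-genotype experiment 3 of the 6 members tested rose (Il15, Il15ra and Il4ra) and 0 fell, where 14.1% of all genes changed, 8.56% upward and 5.49% downward. The median change was 1.08 for these members and 0 for all genes. In these wild-type mice on the control diet, Xist read 12.46 and 12.17 with LPS and 2.25 and 2.24 without. LPS and Xist status therefore cannot be told apart in that diet. On the ABA diet Xist read 2.25 and 2.25 with LPS and 12.56 and 2.24 without. In null mice 1 of 6 rose (Il15ra) and 0 fell, where 7.4% of all genes changed, 3.95% upward and 3.45% downward. The median was 0.97 for the members and -0.01 for all genes. The counts in null and wild-type mice were not tested against each other.

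**Figure D3:**
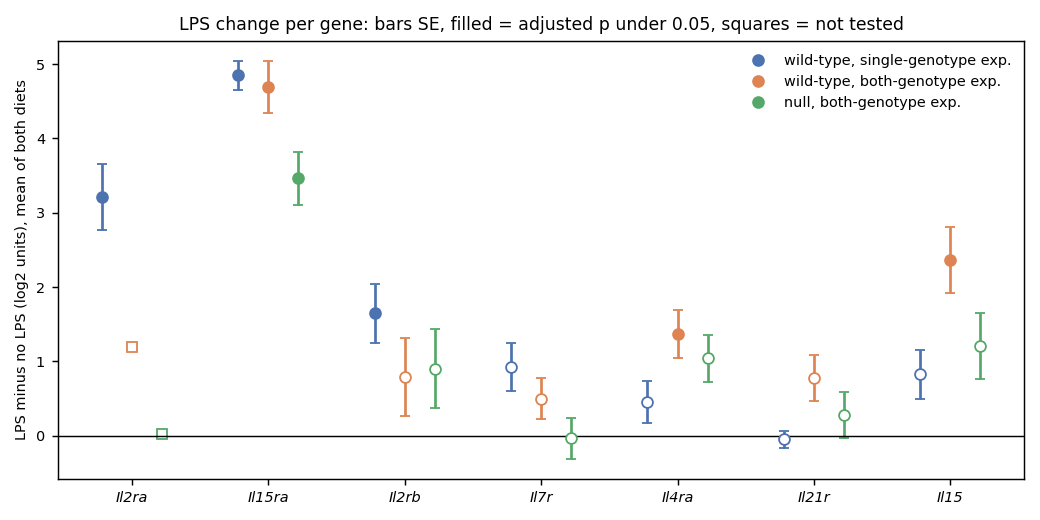
LPS minus no LPS in log2 units (y axis), averaged over diets, for each member in wild-type mice of both experiments and in null mice. Bars are the limma SE, filled circles passed an adjusted p of 0.05, open circles did not, and squares mark Il2ra in the both-genotype experiment, which was not tested; Il15ra passes in all 3 comparisons.

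No member passed the threshold for ABA. With LPS in the single-genotype experiment, 0 of 7 members passed in limma (smallest adjusted p = 0.462) against 0.108% of all genes, with 1111 genes at an unadjusted p under 0.05. Without LPS 0 of 7 passed (smallest adjusted p = 0.711, limma) against 0.514%, with 1095 genes at an unadjusted p under 0.05. The diet by LPS interaction called 0 of 7 (smallest adjusted p = 0.793, limma) against 0.307%, with 815 such genes. In wild-type mice of the both-genotype experiment, averaged with and without LPS, 0 of 6 passed (smallest adjusted p = 0.673, limma) against 0.0299%, with 988 such genes. All 6 changes were downward there, from -0.08 (Il21r) to -1.20 ± 0.53 (Il2rb), with a median of -0.43 against 0 for all genes. The share of all genes that went down was not computed. With LPS in these wild-type mice, Xist read 12.46 and 12.17 on the control diet, against 2.25 and 2.25 on the ABA diet. Diet and Xist status therefore cannot be told apart on these arrays with LPS. In null mice 0 of 6 passed (limma adjusted p = 1.0 for each), and 0% of all genes did, with 419 at an unadjusted p under 0.05. The changes there ran from -0.56 ± 0.44 (Il15) to 0.82 ± 0.53 (Il2rb).

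The null and wild-type values of every member are given next as a description, with no test, because the genotype contrast was used in the choice. On the control diet with LPS, both null arrays lay below both wild-type arrays for all 7 measured members, by the probe set used for each. The same was true of 34.1% of all genes tested (15.1% lay above). The null mean was lower by 2.19 log2 units for Il2ra, and the differences were -1.76 for Il15ra, -1.72 for Il15, -1.58 for Il2rb, -0.76 for Il21r, -0.61 for Il4ra and -0.43 for Il7r. The other probe sets of Il15ra (null 3.77 and 4.66, wild-type 4.59 and 5.35) and Il7r (8.57 and 9.06, 9.30 and 8.99) overlapped. So did 1423996_a_at of Il4ra (6.14 and 5.30, 5.36 and 6.66), while another Il4ra probe set stayed at the lowest value. The other probe set of Il2ra lay below without overlap. That of Il2rb did too (null 2.63 and 2.63, wild-type 2.72 and 4.57). All of these Il2rb values but the 4.57 were within 0.5 log2 units of the lowest value. On the ABA diet with LPS, by the probe sets used, 2 members lay below without overlap (Il2ra by 0.18 and Il15 by 0.22), against 8.09% of all genes. The Il2ra values there were all within 0.5 log2 units of the lowest value, so they are not read as an order. Its other probe set overlapped there. Il2rb lay above by 1.50, against 10.6% of all genes, and the other 4 overlapped. The other Il2rb probe set overlapped there, near the lowest value (null 2.63 and 2.63, wild-type 2.64 and 2.55). Without LPS on the control diet, Il4ra lay lower (-0.59), where 5.4% of all genes lay below and 10.9% above. Its probe set 1423996_a_at overlapped there (null 5.19 and 5.22, wild-type 6.89 and 4.69). Without LPS on the ABA diet, Il7r lay higher (0.58), where 4.28% lay above and 6.32% below. The other Il7r probe set overlapped there (null 8.21 and 8.44, wild-type 7.38 and 8.43). By the probe sets used, the other 6 members overlapped in each of these conditions without LPS.

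**Figure D4:**
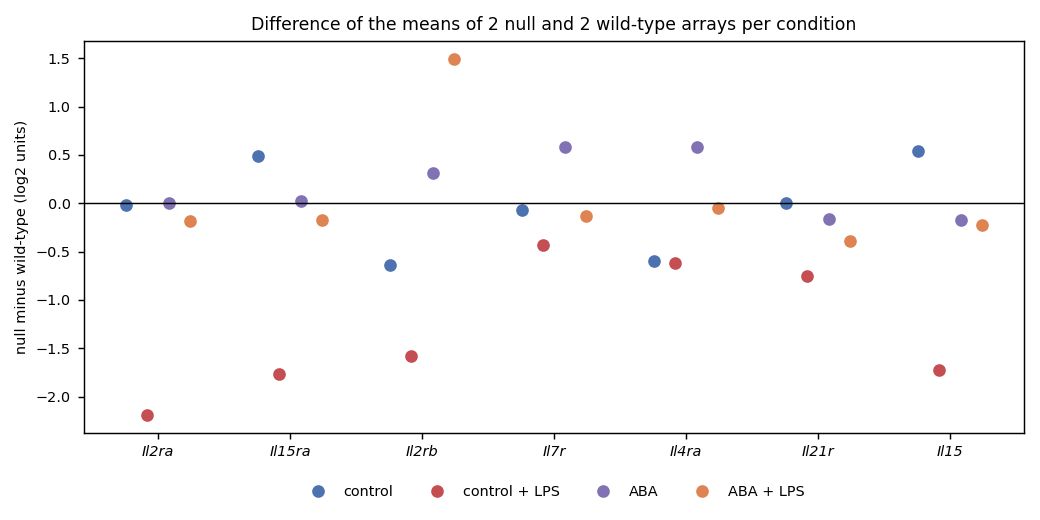
Null minus wild-type difference of group means in log2 units (y axis; 2 arrays in each group) for each member under the 4 combinations of diet and LPS. By the probe set used for each gene, all 7 differences on the control diet with LPS are negative, from -0.43 for Il7r to -2.19 for Il2ra. On the ABA diet with LPS they are negative, from -0.05 for Il4ra to -0.39 for Il21r, except Il2rb at 1.50. The conditions without LPS scatter on both sides of 0.

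Lymphocyte marker means were also lower in null mice on the control diet with LPS. There both null arrays lay below both wild-type arrays for 34.1% of all genes tested, so the lower values were not confined to these markers. The mean log2 level of 11 T cell markers was 6.80 to 6.92 on the null arrays and 7.55 to 7.59 on the wild-type arrays. The mean of 8 NK cell markers was 5.52 to 6.05 in null and 6.51 to 6.61 in wild-type mice, and that of 8 B cell markers was 8.10 to 8.82 against 9.23 to 9.38. The mean of 5 erythroid markers went the other way, at 9.71 to 11.21 in null and 5.66 to 7.30 in wild-type mice. On the ABA diet with LPS the T cell markers overlapped (6.96 to 7.46 in null, 7.01 to 7.37 in wild-type), as did the NK cell markers (5.74 to 6.22 and 5.73 to 5.78). The B cell markers there were higher in null mice (8.79 to 9.53 against 8.52 to 8.77), as were the erythroid markers (7.76 to 10.31 against 6.00 to 7.42), both without overlap. Klre1 in the NK list and Pax5 in the B cell list were near the lowest value (within 0.5 log2 units) on all 16 arrays, and no other marker of these lists was. The part of these markers in the members' differences was not tested.

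Cell markers also moved with LPS in the single-genotype experiment, where the members Il2ra, Il2rb and Il15ra rose. Of 11 T cell markers tested, 0 rose and 5 fell, among them Thy1 (-2.30 ± 0.32) and Cd4 (-1.05 ± 0.18), with a list mean of 7.02 to 8.03 with LPS and 7.46 to 8.72 without. Of 8 NK cell markers, Gzma, a granule protease, rose by 1.90 ± 0.17 and Klrd1 changed by -0.99 ± 0.20. The NK list mean was 5.34 to 5.91 with LPS and 4.91 to 5.33 without, and its markers Ncr1 and Prf1 were near the lowest value on all 12 arrays. Of 8 B cell markers 3 fell, of 8 macrophage and dendritic cell markers 5 fell, and of 5 erythroid markers 3 fell; none of these rose. Of 7 neutrophil markers 0 rose and 2 fell, whereas in the both-genotype experiment 5 of 7 rose in wild-type and 3 of 7 in null mice. In that experiment, beside the rises of Il15, Il15ra and Il4ra, 5 of 5 erythroid markers fell in wild-type mice (median -5.88), against 0 of 5 in null mice (median -1.60). Of 8 NK cell markers there, 3 rose in wild-type mice (Gzma, Prf1 and Tbx21), while in null mice Gzma rose and Klrd1 fell. Of 8 macrophage and dendritic cell markers 3 fell in wild-type and 2 in null mice. The T cell list held 0 that changed of 11 in wild-type and 1 that fell in null mice (Thy1), and 0 of 8 B cell markers changed in either. The part of these markers in the rises was not tested. Of 4 pancreas and 2 adipose markers tested in the single-genotype experiment, 0 changed. In the both-genotype experiment 0 of 5 pancreas markers changed in wild-type mice and 1 of 5 fell in null mice (median -4.44). Of 2 adipose markers 0 changed in either genotype. In the single-genotype experiment Cpa1 read 6.19 on a control-diet array with LPS (replicate 2) and 9.11 on one without (replicate 1). In null mice it read 9.67 and 13.50 on the replicate 2 arrays without LPS. Without those 4 arrays the LPS comparisons again called 3 members in the single-genotype experiment, and 3 in wild-type and 1 in null mice of the other. The share of all genes called without them was not computed.

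The ligands of these receptors other than Il15 were mostly at the lowest value. Il2, Il4 and Il9 read the lowest value on all 28 arrays. Il7, made by stromal cells, was the measured ligand that fell: by -1.52 ± 0.32 log2 units with LPS in the single-genotype experiment (limma, adjusted p = 0.00873) and -1.92 ± 0.47 in null mice (limma, adjusted p = 0.0405). In wild-type mice of the both-genotype experiment its change of -1.41 ± 0.47 did not pass (limma, adjusted p = 0.0792). Il21 changed by 0.55 ± 0.39 in the single-genotype experiment (limma, adjusted p = 0.336) and was not tested in the other. Of 3 further receptor chains (Il9r, Il13ra1 and Crlf2, the receptor chain for TSLP), 0 of 3 changed in the single-genotype experiment. Crlf2 rose in wild-type mice of the both-genotype experiment (1.07 ± 0.31, limma, adjusted p = 0.0492; 1 of 2 tested), and 0 of 2 changed in null mice.

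Downstream of the receptors, 2 of 5 JAK and STAT genes rose in the single-genotype experiment. Stat3, used by IL-21 and by many other cytokines, rose by 1.63 ± 0.17 log2 units (limma, adjusted p = 0.000166). Stat5a, the main signal of IL-2, IL-7 and IL-15 together with Stat5b, rose by 0.83 ± 0.26 (limma, adjusted p = 0.0439), while Stat5b changed by 0.44 ± 0.16 without passing (limma, adjusted p = 0.0777). In the both-genotype experiment 2 of 6 rose in wild-type mice (Stat3 by 1.84 and Stat5a by 0.59) and 1 of 6 in null mice (Stat3 by 1.34). Of 7 STAT5 target and feedback genes tested in the single-genotype experiment 4 rose and 1 fell, with a median of 0.72. Socs2, a feedback inhibitor of cytokine signalling, rose by 2.93 ± 0.11 (limma, adjusted p = 4.82e-07), the cyclin gene Ccnd2 by 2.17 ± 0.32 (limma, adjusted p = 0.00133) and the kinase gene Pim1 by 0.94 ± 0.14 (limma, adjusted p = 0.00143). Mcl1, a survival factor, changed by -0.40 ± 0.10 (limma, adjusted p = 0.0188). Cish, a direct STAT5 feedback gene, did not pass at 0.31 ± 0.28 (limma, adjusted p = 0.468). Socs2 and Ccnd2 also rose in both genotypes of the other experiment, where 3 of 8 rose in wild-type and 2 of 8 in null mice.

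Regulatory T cells carry Il2ra at rest, so their markers were read beside it. In the single-genotype experiment 2 of 6 rose and 1 fell. Ctla4, an inhibitory receptor that activated T cells also express, rose by 1.71 ± 0.29 (limma, adjusted p = 0.00262), and Tnfrsf18 rose by 0.47 ± 0.10 (limma, adjusted p = 0.00797). Itgae, an integrin chain also found on dendritic cells, changed by -2.39 ± 0.29 (limma, adjusted p = 0.000429). Foxp3, the defining factor of these cells, read 3.44 to 5.18 with LPS and 3.44 to 3.67 without, a change that did not pass (0.32 ± 0.29, limma, adjusted p = 0.451). In the both-genotype experiment Foxp3 read 2.24 to 2.28 on every array, so the defining marker gave no usable signal there. Of the 5 others 2 rose in wild-type mice (Ctla4 and Tnfrsf4) and 1 in null mice (Tnfrsf4).

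The pattern of Il2ra over arrays was compared with that of 11264 genes tested in both experiments, by the lower of the Pearson correlations over 12 and over 16 arrays. These correlations are descriptions, since the arrays share the LPS contrast. Over the 16 arrays they rest largely on the wild-type control-diet arrays with LPS, where Il2ra read 4.69 and 4.28. On the other arrays of that experiment Il2ra was within 0.5 log2 units of the lowest value. The most similar was the probe set annotated to Mir1949, with r = 0.967 and 0.922. It read 4.91 and 4.91 in wild-type mice on the control diet with LPS, and 2.24 to 3.63 on the other arrays of the both-genotype experiment. Next were Serpina3i (0.881 and 0.977), a serine protease inhibitor gene, Mmachc (0.909 and 0.845), a gene of cobalamin metabolism, Ptprk (0.942 and 0.839), a receptor tyrosine phosphatase gene, and Mrpl21 (0.899 and 0.825), a mitochondrial ribosomal protein gene. Serpina3i reached only 2.52 and 2.57 in the wild-type control-diet group with LPS, against 2.25 on the other 14 arrays. Within the family Il15 was the most similar, with a lower r of 0.605 (rank 217), followed by Il15ra with 0.527 (rank 549) and Il2rb with 0.412 (rank 1369). The lower r was 0.355 for Il7r, 0.277 for Il4ra and 0.016 for Il21r.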

How the data were processed

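The deposited table holds log2 expression values, 1 per probe set and array (45101 probe sets, 28 arrays). Per the submitters' processing notes GCRMA and limma were used by the authors, with versions and roles not given. The log2 scale was read from the range of the deposited values and from their shared lowest value. GEO's platform annotation gave the gene names: 34958 probe sets name 1 gene, 932 several and 9211 none, and only the first were used. Of these 34754 matched the RefSeq gene table by Entrez identifier. No arrays were identical (0 pairs). Promoters are RefSeq's, build GRCm38.p6.

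A gene was tested if above the 40th percentile of all probe sets on at least 2 arrays. Group means were fitted in R 4.3.3 with lmFit and eBayes of limma 3.58.1, separately for the single-genotype experiment (12 arrays, 12059 genes) and the both-genotype experiment (16 arrays, 13378 genes), each with 8 residual degrees of freedom. P-values were adjusted by Benjamini-Hochberg over all genes tested, with a threshold of 0.05. The LPS by genotype interaction was fitted but is not reported, since genotype was used in choosing the members. Precision is limited by how few arrays there are.

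The members and gene lists were chosen with earlier results of these data known. The text names all members, up to 3 rising and 3 falling genes of each pathway list by adjusted p in the single-genotype LPS comparison, the 5 genes most like Il2ra, and Pparg, Xist and Cpa1. Thy1, Cd4, Gzma, Klrd1, Cish, Tnfrsf4, Foxp3, Stat5b and the ligands and receptor chains were named after their values were seen. Replicate numbers were not used to pair the samples. After group means were removed, same-numbered arrays correlated at -0.165 to 0.381 in the single-genotype experiment (4 of 14 pairs above 0.1). In the both-genotype experiment they correlated at -0.698 to 0.512 (20 of 56 pairs above 0.1). Differently numbered arrays were not compared, so this check cannot exclude pairing. Plots were made in Python 3.11.15 (matplotlib 3.10.9).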

Additional observations from a re-analysis of the deposited data

Results flagged for a closer look

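Among 14 sets of values (7 members in each of the 2 groups of 4 arrays), 1 held an array that stood apart by Dixon's criterion. Il4ra read 6.48 in replicate 2 of the wild-type mice on the ABA diet with LPS in the single-genotype experiment, where the other 3 arrays read 7.85 to 7.97. The gap was 0.918 of the group's range, against a critical value of 0.829. Chance flags about 1 in 20 groups.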

How the results depend on the processing

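Alternatives were median centring, quantile normalisation, the mean of all probe sets, no filter, a 60th percentile filter, array weights, trended robust variances, a replicate block, a term for high Xist, 1 fit of 20 wild-type arrays with experiment as a term, each replicate left out, and, chosen after seeing the data, leaving out 4 arrays with high Cpa1. No member's called direction turned. The share of all genes called was computed for the main fits only, so the member counts below have no such share beside them. A setting that calls more genes may also call more members. With the mean of all probe sets 5 members rose with LPS in the single-genotype experiment, in place of 3. The fit of 20 wild-type arrays has a single LPS change for both experiments, under which 6 members rose, or 5 when Il2ra is left out as in the both-genotype experiment (3 there). With the term for high Xist 2 rose in null mice in place of 1, Il4ra being added (1.20, limma, adjusted p = 0.0328). With replicates left out in turn, LPS called 2 to 4 members in each wild-type comparison and 1 to 2 in null mice. There Il4ra passed without either wild-type ABA array lacking LPS (limma, adjusted p = 0.0348). ABA without LPS called 0 to 1, and the diet by LPS interaction 0 to 1. With the replicate block Il2rb in the single-genotype experiment was 1.41 (limma, adjusted p = 0.0991), so 2 members were called, and no other member's call changed. With the mean of all probe sets Il4ra was not called in wild-type mice of the both-genotype experiment (0.65, limma, adjusted p = 0.138). Il7r in the single-genotype experiment passed under median centring, array weights, the mean of all probe sets, the 60th percentile filter and the 20-array fit (limma, adjusted p from 0.0116 to 0.0482). The causes of these differences were not tested, including for the 20-array fit, which holds more arrays. Members near the lowest value, such as Il2ra in null mice, have only an upper bound there.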
